A study of Mus musculus with 6 samples.

Results

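The immediate early genes Fos, Jun, Junb, Egr1, Ier3, Dusp1 and Myc and the stress genes Gadd45a, Gadd45b and Gadd45g were examined in mouse liver. All probe sets that the platform annotation assigns to exactly 1 of these symbols were taken, which gave 13 probe sets for the 10 genes, out of 45037 probe sets in the table and 18193 genes with a probe set. Gadd45b was read by 3 probe sets, Jun by 2 and each other gene by 1. All 13 lay above the filter on low intensities. AAV8, a liver-transducing adeno-associated virus, had been injected into a vein of C57BL/6 mice and carried Nfkbiz in one group and luciferase in the control group. Both groups were fed CDAHFD, a high-fat diet lacking choline with defined amino acids that models nonalcoholic fatty liver disease, from 4 weeks after injection and for 4 weeks. RNA came from perfused whole liver, and each group held 3 arrays. For the promoter of the vectors, the age and sex of the mice and the time of day at sampling, the sources used here give nothing. The single comparison asked which transcripts differ between the livers given Nfkbiz, the gene of the nuclear IκB protein IκBζ, and those given luciferase on this diet.

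Immediate early genes are transcribed within minutes of a stimulus without new protein synthesis, because their regulators are already present and are switched on by phosphorylation. Most encode short-lived transcription factors or feedback inhibitors, so their transcripts rise and fade quickly, and in liver they respond to feeding, hormones, injury and the handling of tissue. GADD45 proteins are small stress-induced proteins that bind cell cycle regulators and the kinase MAP3K4, an activator of stress-activated MAP kinases.

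Promoter sequence is shown for the members in which a searched motif was found. The members shared a low second AAV8-Nfkbiz array, as described further on. Any link between the motifs and that order was not tested. The 250 bases before the transcription start were taken from the RefSeq promoter table (GRCm38.p6) for 8 of the 10 genes, all but Egr1 and Myc. The selection of member windows left out 1 chromosome, so a gene absent here may still be in that table. The motif results below therefore say nothing of Egr1 and Myc. The windows were searched on both strands for 7 motifs: the CArG box bound by serum response factor, the cyclic AMP response element TGACGTCA, the AP-1 site TGANTCA, the kappa B site, the EGR site GCGNGGGCG, the E-box CACGTG and the TATA motif TATAAA. The windows of Jun, Junb and Gadd45a held none of the motifs. In 5 of the 8 windows at least 1 motif was found. They are the windows of Fos (chr12:85473640-85473889, plus strand), Ier3 (chr17:35821463-35821712, plus strand), Dusp1 (chr17:26508473-26508722, minus strand), Gadd45b (chr10:80929841-80930090, plus strand) and Gadd45g (chr13:51846425-51846674, plus strand). Each is written 5′ to 3′ on the strand of its gene and ends at the base before the start, with the motif matches in capitals.
Fos: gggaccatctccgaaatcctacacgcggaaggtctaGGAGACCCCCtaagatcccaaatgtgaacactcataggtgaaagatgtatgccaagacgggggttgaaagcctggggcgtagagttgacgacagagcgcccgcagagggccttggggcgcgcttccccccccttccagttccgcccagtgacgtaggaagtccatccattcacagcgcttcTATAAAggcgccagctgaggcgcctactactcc
Ier3: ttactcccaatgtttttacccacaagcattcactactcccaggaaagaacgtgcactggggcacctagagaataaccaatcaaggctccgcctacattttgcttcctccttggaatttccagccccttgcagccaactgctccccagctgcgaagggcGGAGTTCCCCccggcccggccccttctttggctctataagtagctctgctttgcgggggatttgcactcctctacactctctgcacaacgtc
Dusp1: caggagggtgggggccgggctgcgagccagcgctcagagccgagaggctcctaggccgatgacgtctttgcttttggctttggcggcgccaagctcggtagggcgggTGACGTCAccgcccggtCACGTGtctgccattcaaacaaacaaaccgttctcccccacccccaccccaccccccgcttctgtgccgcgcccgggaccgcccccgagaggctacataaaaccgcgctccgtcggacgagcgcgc
Gadd45b: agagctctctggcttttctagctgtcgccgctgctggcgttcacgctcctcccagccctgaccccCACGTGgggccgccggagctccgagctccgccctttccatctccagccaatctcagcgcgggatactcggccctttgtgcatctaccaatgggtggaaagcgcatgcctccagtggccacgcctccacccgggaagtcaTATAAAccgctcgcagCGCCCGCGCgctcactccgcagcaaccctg
Gadd45g: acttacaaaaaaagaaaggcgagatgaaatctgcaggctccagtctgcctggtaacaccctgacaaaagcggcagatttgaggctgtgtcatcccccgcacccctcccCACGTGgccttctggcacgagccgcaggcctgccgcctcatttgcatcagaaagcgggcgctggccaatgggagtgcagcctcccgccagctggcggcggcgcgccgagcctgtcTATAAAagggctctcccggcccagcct
The kappa B site was matched in Fos and Ier3, in both on the strand opposite to the gene, and in 3.9% of the 32851 windows of the table. The capitals in Dusp1 mark the cyclic AMP response element, which 1.55% of windows held, and an E-box, which 6.02% held. E-boxes were also found in Gadd45b and Gadd45g, and TATAAA in Fos, Gadd45b and Gadd45g, against 12.4% of windows. The last capitals of Gadd45b mark an EGR site on the opposite strand (4.7% of windows). No CArG box (1.47% of windows) or TGANTCA (6.75%) was found in the 8 windows, which leave out Egr1 and Myc. No 2 of the motifs overlapped in them. A match describes the letters only, and binding was not measured.

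The values are MAS5 intensities in arbitrary units, scaled by the authors, and levels are not compared between probe sets, which differ in how brightly they read. Each difference is a log2 value, with the AAV8-luciferase mean taken from the AAV8-Nfkbiz mean, tested with limma, and adjusted p-values are Benjamini-Hochberg values over the 27022 probe sets above the filter unless the gene-level fit is named. The arrays had median intensities between 78.2 and 95.2. The second AAV8-Nfkbiz array had the lowest and the first AAV8-luciferase array the highest. The first principal component of the genes tested, which held 26.6% of the variance, parted the groups. The AAV8-luciferase arrays lay at -31.2, -17.2 and -10.1 and the AAV8-Nfkbiz arrays at 16.9, 37.8 and 3.75, so the second AAV8-Nfkbiz array was the extreme of its side. On the second component the third AAV8-luciferase array lay farthest out, at -45.1 against 3.11 to 21.1 elsewhere. Of the markers of the labelled tissue, the 6 hepatocyte genes measured were bright on every array, with a summed intensity between 235500 and 276300. The vector gene was read at 221, 230 and 180 on the AAV8-luciferase arrays and 4424, 4073 and 2006 on the AAV8-Nfkbiz arrays by its probe set 1448728_a_at (log2 difference 3.98 ± 0.27 SE). Its other 2 probe sets, 1417483_at at 0.30 ± 0.19 and 1457404_at at -0.89 ± 0.54, did not pass.

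No immediate early or Gadd45 probe set passed the test between the groups. By limma's test 0 of the 13 probe sets passed at an adjusted p below 0.05, where 0.0703% of all probe sets passed, and 1 had an unadjusted p below 0.05, where 10.6% of all probe sets did. The groups overlapped for all 13, whereas they did not overlap for 16.7% of all probe sets. The differences were positive for 11 probe sets and negative for 2, with a median of 0.31, beside -0.025 over all probe sets tested and 47% of them positive. The 95% confidence intervals were wide: that of Egr1 ran from 0.68-fold to 3.72-fold and that of Junb from 0.68-fold to 1.47-fold. Lack of a call therefore does not show that the groups were alike.

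**Figure D1:**
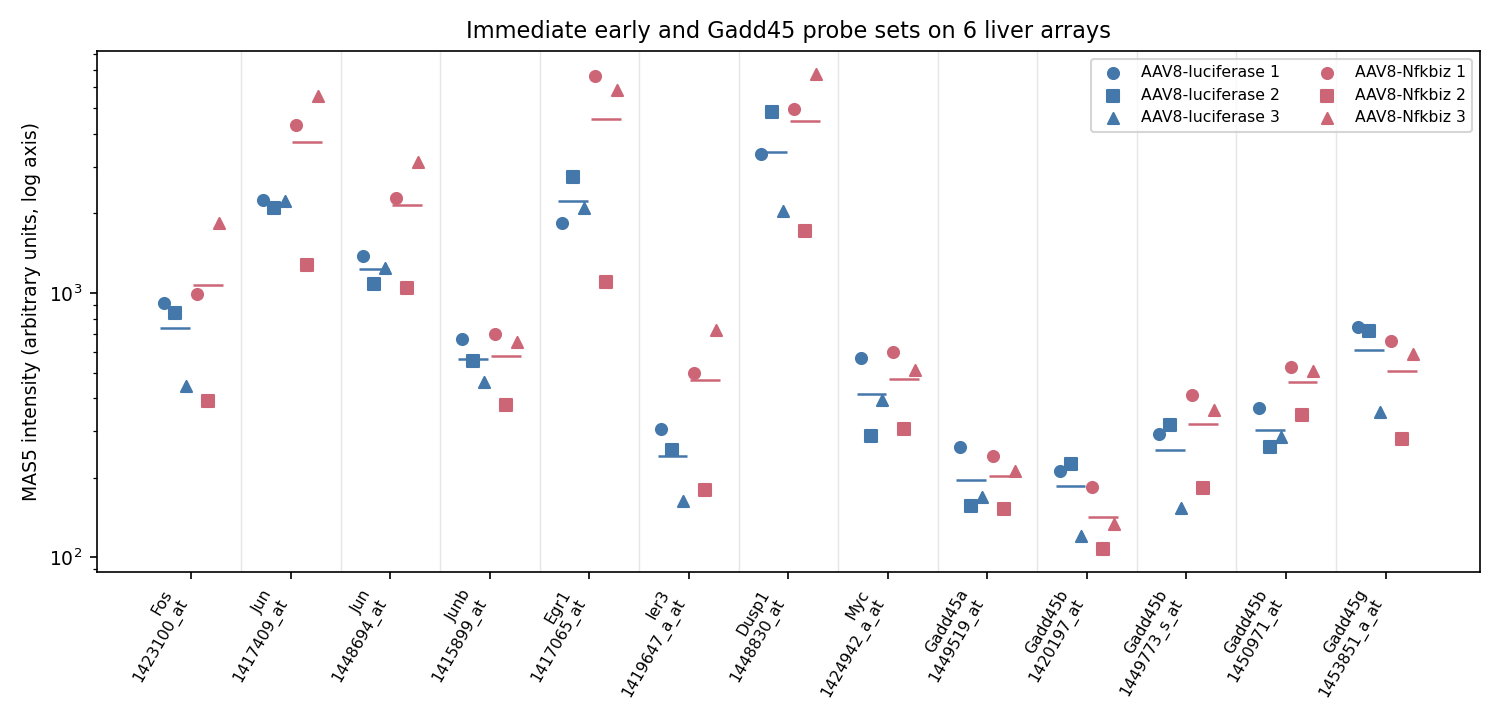
MAS5 intensity (arbitrary units, log axis) of the 13 probe sets on each of the 6 arrays; blue marks AAV8-luciferase and red AAV8-Nfkbiz, the shape gives the replicate number and the bars the group means (n = 3). The groups overlap for every probe set, and the second AAV8-Nfkbiz array (red square) is the lowest of its group for all 13.

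Across the members, the second AAV8-Nfkbiz array read low. It was the lowest array of its group for 13 of 13 probe sets, where 40.8% of all probe sets had their lowest AAV8-Nfkbiz value there, and the lowest of all 6 arrays for 9 of 13, where 23.6% did. At the same time the first and the third AAV8-Nfkbiz arrays both lay above all 3 AAV8-luciferase arrays for 8 of 13, where 12.1% of all probe sets showed this. The third AAV8-luciferase array was the lowest of its group for 7 of 13, where 44.1% of all probe sets were. The within-group standard deviation was above the median of all probe sets (0.286 on the log2 scale) for all 13, with a median of 0.602, and above the 90th percentile for 5. This ordering was noticed in these data and is given as a description. A low second AAV8-Nfkbiz array was not confined to the members. In the gene lists described further on, it was the lowest of its group for 14 of 18 other immediate early genes and 9 of 11 upstream transcription factors. The same held for 8 of 12 MAP kinases and 9 of 15 MYC targets. Counts were 4 of 8 for phosphatases, 3 of 10 for the MYC network and 2 of 6 for GADD45 partners, beside 39.9% of all genes.

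The AP-1 subunit genes Fos, Jun and Junb encode leucine zipper proteins that pair to bind TGANTCA. Fos read 919.8, 838.9 and 445.1 on the AAV8-luciferase arrays and 992.8, 390.4 and 1838 on the AAV8-Nfkbiz arrays. Its highest and its lowest value were both in the AAV8-Nfkbiz group, 4.71-fold apart, and the AAV8-luciferase values lay between them. The log2 difference was 0.35 ± 0.48 (SE, limma adjusted p = 0.83).

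Jun, the main partner of FOS, was nearly level in the controls and spread widely under Nfkbiz. Probe set 1417409_at read 2254, 2104 and 2235 on the AAV8-luciferase arrays against 4318, 1280 and 5572 on the AAV8-Nfkbiz arrays. The controls thus spanned 1.07-fold and the AAV8-Nfkbiz arrays 4.35-fold, with 2 arrays above all controls and the second below them. The other probe set, 1448694_at, had the same order in the AAV8-Nfkbiz group, at 2280, 1043 and 3125, against 1376, 1081 and 1246 in the controls. The log2 differences were 0.51 ± 0.43 (limma adjusted p = 0.703) and 0.67 ± 0.33 (limma adjusted p = 0.505).

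Junb, whose protein replaces JUN in some AP-1 dimers and often restrains its targets, had group means almost the same. It read 669.7, 555.3 and 459.0 in the controls and 698.3, 377.0 and 654.1 in the AAV8-Nfkbiz livers, with a log2 difference of 0.0042 ± 0.25 (limma adjusted p = 0.996). Here too the second AAV8-Nfkbiz array was the lowest of all 6, at 1.85-fold below the first.

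Egr1, a zinc finger factor induced by growth factors and stress through serum response factor, varied more than any other member. The AAV8-luciferase arrays read 1843, 2747 and 2096 and the AAV8-Nfkbiz arrays 6640, 1098 and 5851. The first and the third AAV8-Nfkbiz arrays stood far above every control and the second below every control, 6.05-fold under the first. The within-group standard deviation, 1.05 on the log2 scale, was exceeded by 3.59% of all probe sets. The log2 difference was 0.67 ± 0.55 (limma adjusted p = 0.699).

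Ier3, a target of NF-κB and growth factor signalling whose product protects cells against apoptosis, had the largest difference of the members. It read 304.9, 255.5 and 163.2 in the controls and 497.6, 179.4 and 726.7 in the AAV8-Nfkbiz livers. The log2 difference of 0.78 ± 0.45 corresponds to 1.72-fold and did not pass (limma adjusted p = 0.567). Its lowest value was on the third AAV8-luciferase array, with the second AAV8-Nfkbiz array next.

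Dusp1 encodes the phosphatase that switches off stress-activated MAP kinases, and is itself induced by them and by glucocorticoids. It read 3356, 4853 and 2045 in the controls and 4952, 1718 and 6705 in the AAV8-Nfkbiz livers. Both groups spread, by 2.37-fold and 3.9-fold, and the third AAV8-luciferase and the second AAV8-Nfkbiz arrays were the low ones. The log2 difference was 0.26 ± 0.45 (limma adjusted p = 0.87).

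Myc, a transcription factor of growth and ribosome synthesis, read 567.4, 286.8 and 394.3 in the controls and 597.7, 305.2 and 513.1 in the AAV8-Nfkbiz livers. The groups covered nearly the same range, 1.98-fold and 1.96-fold wide. Its log2 difference was 0.18 ± 0.30 (limma adjusted p = 0.863).

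Within-group standard deviations of the Gadd45 probe sets ran from 0.298 to 0.636 on the log2 scale, below those of Egr1, Fos, Ier3, Dusp1 and the brighter Jun probe set (0.803 to 1.05). Those of Junb (0.396), Myc (0.501) and the dimmer Jun probe set (0.589) lay inside the Gadd45 range. Gadd45a, a p53 target induced by DNA damage, read 261.1, 156.5 and 169.7 in the controls and 241.7, 152.7 and 212.4 in the AAV8-Nfkbiz livers (log2 difference 0.06 ± 0.28, limma adjusted p = 0.958). Its ranges in the groups nearly coincided.

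Gadd45b, the member of the family induced by NF-κB and transforming growth factor β, was read differently by its 3 probe sets. The brightest, 1450971_at, read 365.7, 261.0 and 285.9 in the controls and 525.9, 344.1 and 506.1 in the AAV8-Nfkbiz livers. All but the second AAV8-Nfkbiz array exceeded every control there. This was the 1 member probe set with an unadjusted p below 0.05, 0.0254, at a log2 difference of 0.58 ± 0.22 (1.5-fold, limma adjusted p = 0.409). Probe set 1449773_s_at, at 292.5, 317.8 and 153.2 against 411.0, 183.0 and 361.0, had a difference of 0.31 ± 0.36 (limma adjusted p = 0.79). Probe set 1420197_at pointed the other way, at 211.6, 225.7 and 120.0 in the controls against 184.7, 107.8 and 134.0 (-0.37 ± 0.32, limma adjusted p = 0.715). The probe sets therefore do not give one direction for Gadd45b, and the sources used here do not say which part of the transcript each reads.

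Gadd45g, a growth-restraining member that responds to cytokines, had a negative difference. It read 745.6, 719.6 and 356.0 in the controls and 657.2, 280.2 and 589.0 in the AAV8-Nfkbiz livers. The third AAV8-luciferase and the second AAV8-Nfkbiz arrays lay far below the other 4. The log2 difference was -0.27 ± 0.36 (limma adjusted p = 0.823).

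**Figure D2:**
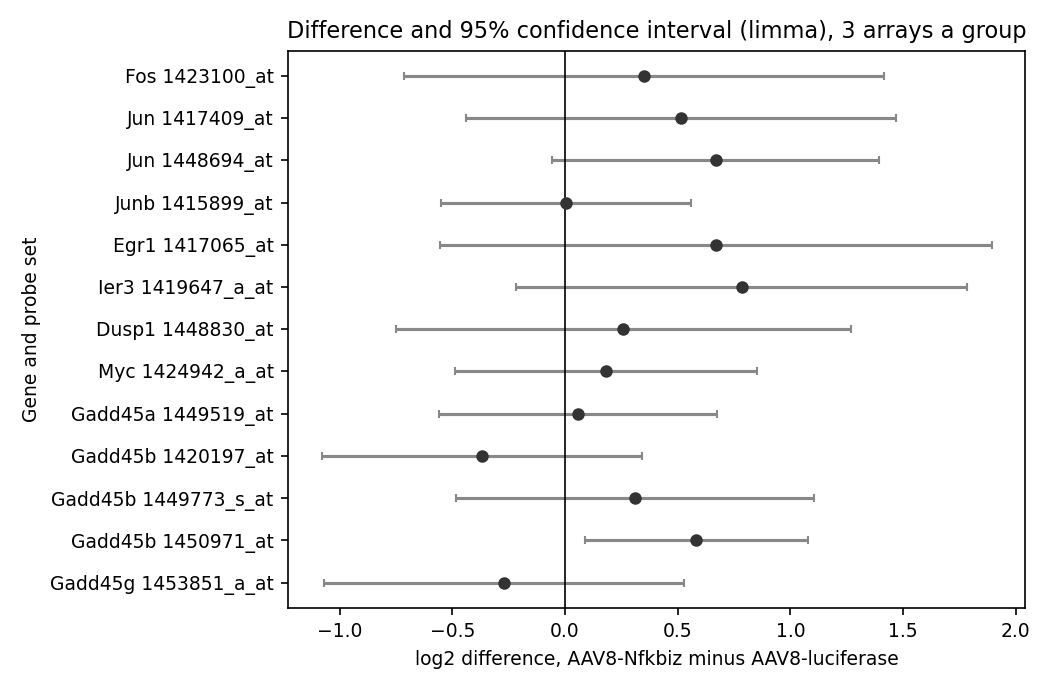
log2 difference between the groups (above 0, higher in AAV8-Nfkbiz) for each of the 13 probe sets, as points with limma's 95% confidence interval (3 arrays a group). All intervals except that of Gadd45b probe set 1450971_at (0.09 to 1.08, unadjusted) include 0.

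Set against each gene's own mean, the 7 immediate early genes shared their low array within the AAV8-Nfkbiz group, and the controls had no common order. Averaged over the 7 immediate early genes at their brightest probe set, the log2 deviations were 0.002, -0.088 and -0.506 on the AAV8-luciferase arrays and 0.617, -0.891 and 0.866 on the AAV8-Nfkbiz arrays. The 3 Gadd45 genes averaged 0.307, -0.118 and -0.374, then 0.384, -0.451 and 0.251. Among the controls, the first array ran from -0.589 for Egr1 to 0.412 for Myc and the second from -0.572 for Myc to 0.464 for Dusp1. The third was the lowest control for 4 of the 7. In both averages the second AAV8-Nfkbiz and the third AAV8-luciferase arrays were the 2 lowest of the 6. For the vector gene, probe set 1448728_a_at read 4073 on the second AAV8-Nfkbiz array and 2006 on the third, a different order. Any link between the vector level and the members' order was not tested.

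**Figure D3:**
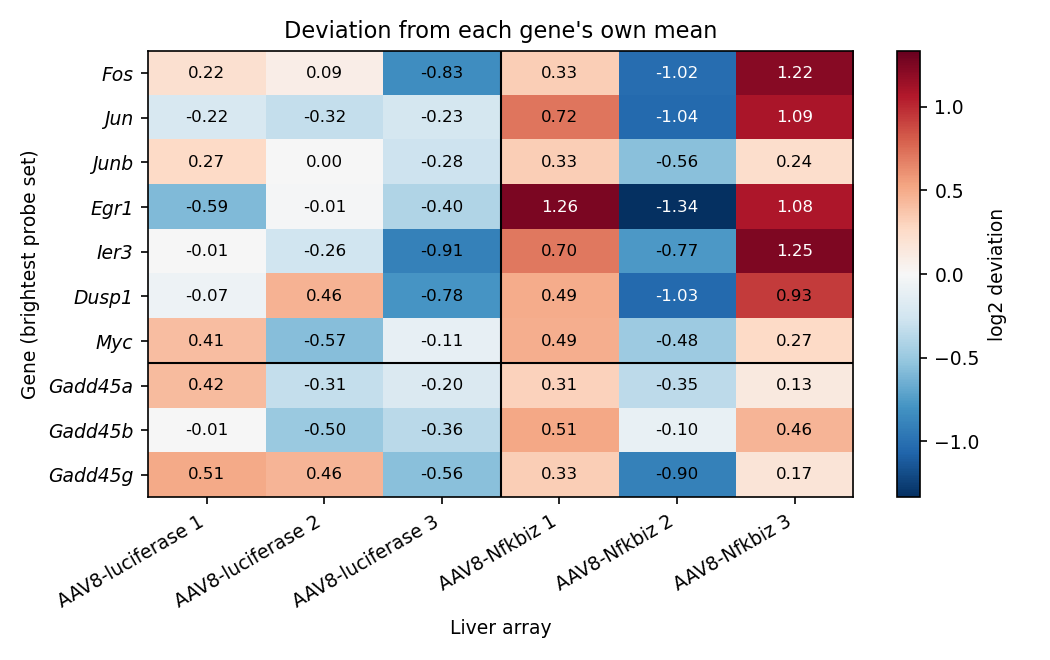
log2 deviation of each gene's brightest probe set from its own mean over the 6 arrays (colour and printed value), with a line between the groups and between immediate early and Gadd45 genes. The second AAV8-Nfkbiz column is negative for all 10 genes, from -0.10 for Gadd45b to -1.34 for Egr1.

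The genes nearest to each average profile were found by distance. By the root mean square difference over the 6 arrays, the genes nearest to the immediate early average were Oscar (0.147 on the log2 scale), Mymk (0.149) and Prdm1 (0.162), beside a median of 0.644 over all other genes tested. Nearest to the Gadd45 average were Ulk3 (0.0603), Bcorl1 (0.0635) and P2ry4 (0.0635), beside a median of 0.404. Most of these genes were dim. Mymk read between 27.3 and 91.4, Oscar between 37.2 and 136.0, Prdm1 between 63.0 and 161.3, Bcorl1 between 61.8 and 107.8 and P2ry4 between 70.9 and 125.2. Ulk3 was brighter, at 158.4 to 293.8. They were picked as the nearest of all genes tested, so distances far below the median come from the choice itself.

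With 1 array left out in turn, each AAV8-Nfkbiz array moved the members, and calls appeared without the second one. In the fit on 1 probe set per gene with all 6 arrays, 0 of the 10 genes passed limma's test, where 30 of 13312 genes (0.225%) did, and 1, Gadd45b, had an unadjusted p below 0.05 (0.0225), where 12% of genes did. Of the 10 differences 9 were positive, where 47.8% of all genes were. Without the second AAV8-Nfkbiz array, Egr1 rose by 1.504 (limma adjusted p = 0.0265) and Jun by 1.16 (limma adjusted p = 0.0338) on the log2 scale over the 13312 genes, where 0.12% passed. Over the probe sets the same fit gave limma adjusted p-values of 0.0517 for Egr1 and 0.0679 for the brighter Jun probe set, so 0 of 13 passed there, where 0.0296% of all probe sets did, with 7 of 13 at an unadjusted p below 0.05, where 7.34% of all probe sets were. This array was the lowest of its group for every member, so leaving it out moves every difference upward by construction. In the 5 fits that left out another array no member passed. Without the third AAV8-Nfkbiz array, Jun differed by 0.10, Egr1 by 0.30, Ier3 by 0.36, Fos by -0.17 and Dusp1 by -0.14. Without the first, Jun differed by 0.28, Egr1 by 0.21, Ier3 by 0.63, Fos by 0.27 and Dusp1 by 0.08. All 6 arrays gave 0.51 for Jun and 0.67 for Egr1. Without the third AAV8-luciferase array, the differences were 0.53 for Ier3, 0.02 for Fos and -0.07 for Dusp1, where all 6 arrays gave 0.78, 0.35 and 0.26.

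**Figure D4:**
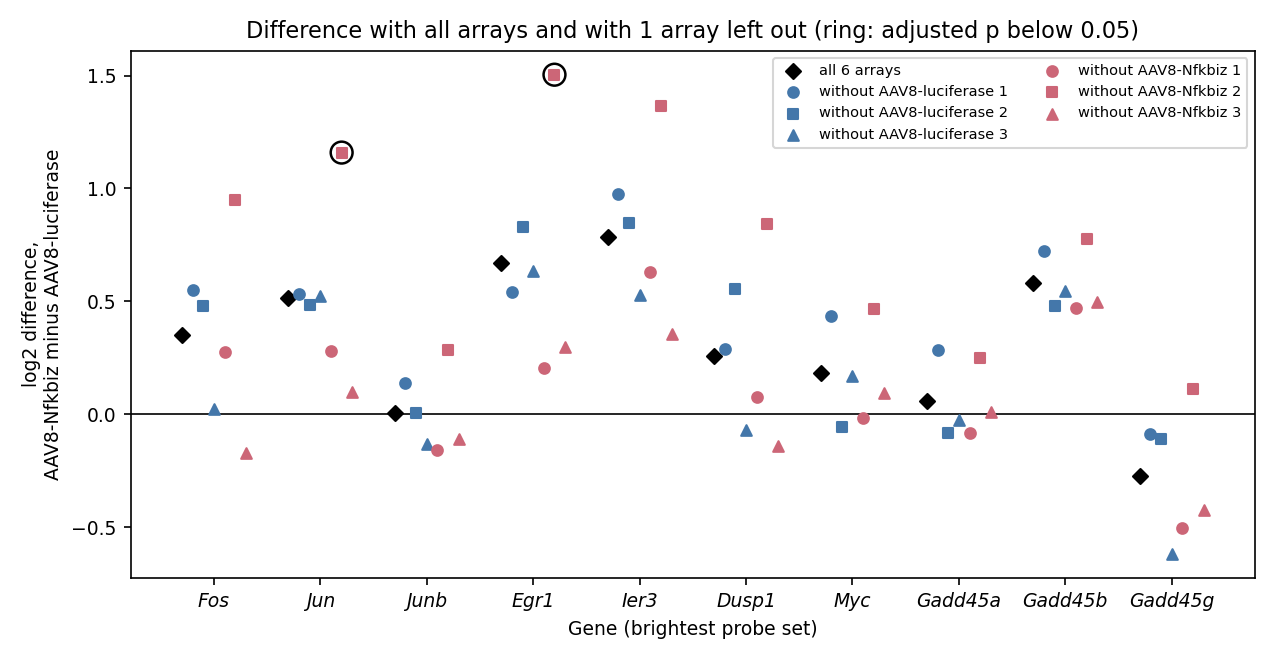
log2 difference of AAV8-Nfkbiz minus AAV8-luciferase at the brightest probe set of each gene, with all 6 arrays (black diamond) and with each array left out (colour and shape give the array); rings mark a limma adjusted p below 0.05. The 2 rings are Egr1 at 1.504 and Jun at 1.16, both without the second AAV8-Nfkbiz array.

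Other immediate early genes gave no call either. Of 20 listed, 18 lay above the filter and 0 passed limma's test over all genes. At an unadjusted p below 0.05, 2 were higher and 1 lower, where 5.03% and 7% of all genes were, and the median difference was 0.151, beside -0.016 over all genes. That median was -0.036 without the third AAV8-Nfkbiz array. The AP-1 gene Jund read 3909, 3402 and 4488 against 4602, 3046 and 4760 (0.05 ± 0.18), Atf3, a stress-induced repressor, differed by -0.03 ± 0.24 and Ier2 by 0.23 ± 0.19. Fosb was below the filter, at no more than 66.8 on any array. As in the members, the second AAV8-Nfkbiz array was the lowest of its group for 14 of the 18, where 39.9% of all genes were. The first and the third AAV8-Nfkbiz arrays exceeded all controls for 6 of them, where 13% of genes did. Nr4a1, an orphan nuclear receptor gene, showed it, at 368.4, 422.4 and 332.0 against 490.8, 272.1 and 831.6, and was chosen after its values were seen.

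The 4 genes of this list with the smallest p were Maff, Nfil3, Egr3 and Zfp36. Maff, which encodes a small MAF partner of AP-1 and NRF factors, read 615.2, 433.5 and 285.9 in the controls and 293.9, 139.4 and 207.0 in the AAV8-Nfkbiz livers (-1.06 ± 0.33, limma adjusted p = 0.245). Nfil3, a repressor of clock-controlled promoters, differed by 0.34 ± 0.14 with no overlap between the groups (limma adjusted p = 0.373). Egr3 had the largest difference, 1.93 ± 0.83, at low intensities between 7.71 and 151.6 (limma adjusted p = 0.387). Zfp36, whose protein destabilises cytokine transcripts, differed by -0.39 ± 0.29 (limma adjusted p = 0.618).

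Kinases and phosphatases of the MAP kinase pathways, which act before the immediate early genes or switch their signal off, were read from 2 lists. Among 12 kinase genes tested 0 passed over all genes, 3 had an unadjusted p below 0.05 and a negative difference, where 7% of all genes did, and 1 of 12 differences was positive, where 47.8% of all genes were (median -0.191). Map2k6, an activator of a stress-activated MAP kinase, read 378.0, 354.4 and 258.8 in the controls and 96.8, 184.5 and 163.3 in the AAV8-Nfkbiz livers (-1.19 ± 0.28, limma adjusted p = 0.164). Map3k5 differed by -0.40 ± 0.15 and Map2k3 by -0.28 ± 0.15, and like Map2k6 their groups did not overlap at the brightest probe set, as for 18% of all genes. The other probe set of Map3k5 differed by -0.63 ± 0.20, while that of Map2k3, 1425456_a_at, overlapped and differed by 0.04 ± 0.15. Of 8 phosphatase genes other than Dusp1, 0 passed and 2 had an unadjusted p below 0.05, both negative, where 7% of all genes were. Those were Dusp16 (1521, 1679 and 1270 against 1027, 989.8 and 1038, at -0.54 ± 0.14, limma adjusted p = 0.187) and Dusp4 (-1.12 ± 0.48, limma adjusted p = 0.391). Dusp8 and Dusp7 had differences of -0.41 and 0.27.

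Map3k4, the kinase that GADD45 proteins bind and activate, is read by 4 probe sets, all with negative differences between -0.40 and -0.51. The brightest read 511.5, 471.2 and 622.6 in the controls and 397.4, 360.5 and 423.0 in the AAV8-Nfkbiz livers, without overlap (-0.44 ± 0.17, limma adjusted p = 0.342). Map3k4 was the 1 of 6 tested GADD45 partners and outputs with an unadjusted p below 0.05, where 12% of all genes had one, and 0 passed over all genes. Cdk1, the mitotic kinase, differed by 0.51 ± 0.32 and the replication clamp gene Pcna by 0.15 ± 0.17. The stress-activated kinase gene Mapk14 differed by -0.25 ± 0.13 at its brightest probe set, and by -1.29 ± 0.38, -0.04 ± 0.20 and 0.42 ± 0.29 at the other 3 above the filter, which give no one direction.

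Transcription factors that act on immediate early promoters, 11 genes tested, had 0 calls, where 0.225% of all genes were called. At an unadjusted p below 0.05 there were 0, where 12% of all genes were. The median was -0.124, beside -0.016 over all genes. Creb1, which binds the cyclic AMP response element, differed by -0.30 ± 0.16 at its brightest probe set, and by -0.17 ± 0.23 and 0.30 ± 0.30 at its others above the filter. Mrtfb, a coactivator of serum response factor, differed by -0.24 ± 0.14 and by 1.17 ± 0.85 at a dimmer probe set. Elk4, a partner of serum response factor, differed by -0.27 ± 0.18 at its brightest and by -0.59 to 0.24 at its other probe sets. For these 3 genes the probe sets differ in sign. Crem differed by 0.23 ± 0.15 and the EGR corepressor gene Nab2 by 0.18 ± 0.23.

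The MYC network, the partners and antagonists that share the MAX dimer, had 0 of 10 genes past the threshold, where 0.225% of all genes passed. At an unadjusted p below 0.05, 0 were higher and 1 lower, where 5.03% and 7% of all genes were. The median was -0.186, beside -0.016 over all genes. Max differed by -0.25 ± 0.18, and the antagonist genes Mxd1 and Mxd4 by -0.48 ± 0.27 and -0.31 ± 0.16. The other Mxd4 probe sets ran from -0.65 to 0.24 and so differ in sign. The paralog Mycn had the smallest p at its brightest probe set (-1.18 ± 0.34, limma adjusted p = 0.214), but its probe set 1425923_at had a difference of 1.46 ± 0.56 in the probe-set fit, so its direction is not settled. Of 15 MYC target genes 0 passed over all genes, and 3 were higher and 1 lower at an unadjusted p below 0.05, where 5.03% and 7% of all genes were (median 0.148). The nucleolar gene Nop58 read 823.6, 660.2 and 498.8 against 1149, 842.5 and 1009 (0.62 ± 0.20, limma adjusted p = 0.271). Nme1 (0.34 ± 0.12) and Npm1 (0.30 ± 0.13) also lay above the controls on every AAV8-Nfkbiz array at their brightest probe sets, and the spermidine synthase gene Srm (-0.38 ± 0.16) below them. The other probe sets of Nme1 and Npm1 overlapped between the groups, at 0.10 ± 0.23 for Nme1 and 0.44 ± 0.27 for Npm1.

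**Figure D5:**
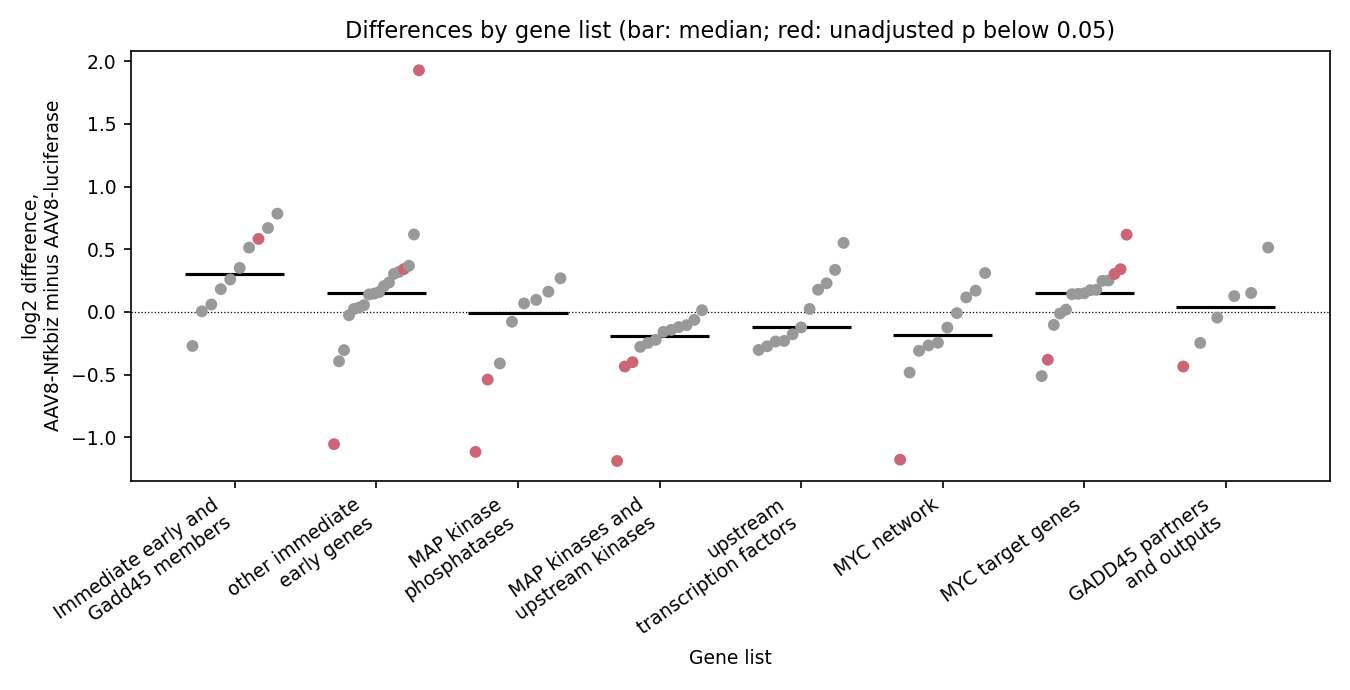
log2 difference of AAV8-Nfkbiz minus AAV8-luciferase for each tested gene of the members and the 7 lists; bars are medians and red points have an unadjusted p below 0.05. The medians run from -0.191 for the MAP kinases and upstream kinases to 0.305 for the 10 members, and no point passed after adjustment over all genes.

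Whole liver RNA mixes cell types, and fewer cells of a type cannot be told apart from less RNA per cell. Over all genes tested, 47.8% of differences were positive and 0.225% passed, to set beside the counts below. The summed intensity of the 11 Kupffer cell and macrophage markers was 32300 to 44770 in the controls and 47650 to 61890 in the AAV8-Nfkbiz livers, with 10 of 11 differences positive and 0 past the threshold. It was highest on the second AAV8-Nfkbiz array, at 61890, where the members were lowest. Neutrophil markers (7 genes, 2 of them below the filter) summed to 902.8 to 1379 and 1202 to 2840, with 6 of 7 positive. T and NK cell markers (9 genes) summed to 800.9 to 920.2 and 1015 to 1696, with 6 of 9 positive and Gzma past the threshold. Gzma read 109.4, 112.2 and 82.9 in the controls and 496.3, 321.3 and 251.4 in the AAV8-Nfkbiz livers. Without Gzma the T and NK sums overlap between the groups. The 5 B and plasma cell markers summed to 381.0 to 573.1 and 571.7 to 805.8, all positive. For these 3 lists the highest sum was on the first AAV8-Nfkbiz array. Their part in the members' values, and that of the macrophage markers, was not tested. Of these 4 lists the sums overlapped between the groups for neutrophil and for B and plasma cell markers. They also overlapped for the endothelial (4262 to 8564 and 7551 to 9500), stellate (22650 to 41890 and 22800 to 30580) and cholangiocyte markers (437.4 to 749.8 and 343.3 to 656.5), with 7 of 8, 1 of 9 and 2 of 5 differences positive.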

How the data were processed

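RNA of 6 mouse liver samples was hybridised to Affymetrix 3' expression arrays, 1 per sample, from 100 ng of total RNA. The deposited values are linear MAS5 intensities. The authors' use of MAS5 is named, without a version, per the submitters' processing notes. Trimmed means of 495.37 to 496.52 show a common scaling target. No detection calls or scan dates were used here.

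Intensities were log2-transformed with no pseudocount. The lowest 40% of probe sets by mean (below 47.4) were left out, and limma 3.58.1 (R 4.3.3; lmFit, eBayes with an intensity trend) was fitted to 27022 probe sets and, with the brightest probe set per gene, to 13312 genes, in two-sided tests, with p-values adjusted by Benjamini-Hochberg and called below 0.05. Errors of differences are moderated SEs. Symbols came from the platform annotation (34945 probe sets with 1 symbol, 932 with several, 9160 not listed), checked by Entrez identifier in RefSeq (34741 found, 0 changed). The procedure was tested on simulated data with independent noise for each probe set and array. A shift shared by many genes on an array was not simulated. The labels say only that the arrays are separate samples, so p-values reflect only how these samples vary, which may be technical. The number of arrays limits the precision.

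The members and lists were chosen with earlier results of these data known. Genes named were all members, Nfkbiz, the 4 genes of each list with the smallest p, 8 further genes in any case (Map3k4, Nab2, Max, Mxd1, Jund, Fosb, Atf3 and Ier2), and the 3 genes nearest each class profile. Nr4a1 and Gzma were named after their values were seen. Promoters came from RefSeq and figures from matplotlib 3.10.9. Alternatives covered the filter, a pseudocount of 16, normalization, the variance prior, array weights, a replicate block, the probe set per gene and each array left out.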

Additional observations from a re-analysis of the deposited data

How the results depend on the processing

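No member probe set passed under any of the 15 alternatives run on probe sets, and in the gene-level fit Egr1 and Jun passed without the second AAV8-Nfkbiz array only. The count of all probe sets past the threshold, 19, was 30 with 16 added to each intensity, 77 with array weights and 0 without the intensity trend (2429 at an unadjusted p below 0.05), and ran from 8 to 33 with 1 array left out. The count of genes, 30, was 62 with array weights, 13 with the mean of a gene's probe sets, 10 with the most variable probe set and 0 without the trend (1350 at an unadjusted p below 0.05), and ran from 8 to 19 with 1 array left out. The cause of these shifts was not tested. Over the fits with 1 array left out, differences changed sign for Fos (-0.17 to 0.95), Junb (-0.16 to 0.28), Dusp1 (-0.14 to 0.84), Myc (-0.059 to 0.47), Gadd45a (-0.084 to 0.28), Gadd45g (-0.62 to 0.11) and Gadd45b probe set 1449773_s_at (-0.021 to 0.67). Jun, Egr1, Ier3 and the other Gadd45b probe sets kept their sign in every probe-set alternative. With the replicate number as a block, 28 probe sets, 27 genes and 0 members passed. Same-numbered arrays did not deviate together (r = -0.062, 0.070 and -0.032 across genes), so they share a number and no pairing was used. With 3 arrays a group, the smallest two-sided p of an exact permutation test is 0.1.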
